A study of Mus musculus with 36 samples.

Results

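Immortalised mouse microglia of the BV-2 line were activated with lipopolysaccharide (LPS, a bacterial cell wall component that triggers Toll-like receptor 4) and exposed to dimethyl fumarate (DMF), and the transcriptome at 24 h was compared with that at 4 h. These 2 groups hold 6 of the 36 sequenced samples, with 3 samples per time point, and were selected by their deposited table of gene counts. That table lists 17661 genes, of which 11602 reached a normalized count of at least 10 in at least 3 libraries and were tested. A normalized count is a gene's read count divided by a factor for its library's depth, so it compares libraries within a gene and not one gene with another.

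Both groups received LPS at 600 ng/mL and DMF at 30 µM in DMSO, with vehicle at 0.2%, after the serum in the medium had been lowered immediately before treatment. They differed in the time of exposure, 4 h or 24 h. The time change was also set against the same change with LPS alone, with LPS and monomethyl fumarate (MMF, the ester to which DMF is hydrolysed) at 30 µM, and with the DMSO vehicle without LPS, at 3 samples per group and time. None of those libraries is shared with the DMF groups. The vehicle given with LPS alone is not stated, so that comparison may also differ in DMSO. The DMSO libraries are numbered 4 to 6 and those of the LPS groups 1 to 3. The protocol describes 3 repeats of each experiment but does not say whether the wells were seeded separately, so the p-values measure the spread between these samples. The cells are an immortalised line and not primary microglia, and in bulk RNA fewer cells of a state and less RNA per cell cannot be told apart.

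Fumarates are electrophiles that modify cysteines of Keap1, the adaptor that keeps the transcription factor Nrf2 at low levels. Free Nrf2 binds antioxidant response elements with small Maf proteins and switches on genes for heme breakdown, glutathione synthesis and thiol reduction. LPS acts through NF-kB to induce cytokines within hours, and through an autocrine interferon-beta loop to induce the interferon-stimulated genes. Feedback inhibitors such as the IkB proteins and Tnfaip3 are themselves NF-kB targets.

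The libraries held 15100758 to 22774814 reads on genes, the deepest being replicate 3 at 24 h, and between 14700 and 15506 genes had at least 1 read. Mitochondrially encoded genes took 1.97 to 2.24% of reads. Of the microglia and macrophage markers, Csf1r, Ptprc, Adgre1, Spi1 and Cd68 were measured, whereas Gpr34, C1qa and C1qc stayed at or below a normalized count of 3.30 in every library. Of the marker lists of other cell types, the astrocyte markers summed to between 5.44 and 23.4 and the T and B cell markers to between 2.2 and 6.53, with none of either list reaching the test. Neuron markers summed to 158 to 200 at 4 h and 78.0 to 165 at 24 h, and fibroblast and endothelial markers to 70.5 to 82.5 and 90.4 to 145. Oligodendrocyte markers were the highest of these lists, at 780 to 1030 at 4 h and 1103 to 1196 at 24 h. The last 3 lists held 5 genes that reached the test.

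One feature of the libraries bears on the inflammatory genes. Replicate 2 had the highest level of all 25 interferon-stimulated genes at 4 h and again at 24 h with DMF, and of 25 and 23 of these genes at 4 h and 24 h with LPS alone. The summed level of the 25 genes at 4 h with DMF was 13800 in replicate 1, 24360 in replicate 2 and 13157 in replicate 3. At 24 h it was 35241, 51791 and 41826, so the groups did not overlap. Counts of the change over time without the 4 h replicate 2 library are given for the inflammatory lists and for some others that moved. For the inflammatory lists, lower counts that came without other libraries are given beside them.

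From 4 h to 24 h, 6826 of 11602 genes changed at an adjusted p below 0.05 (limma on log2 values, Benjamini-Hochberg adjustment), which is 58.8% of those tested. Of these, 3445 (29.7% of genes tested) were higher at 24 h and 3381 (29.1%) were lower. A change of more than 1 on the log2 scale, that is more than a doubling or halving, was seen in 1774 genes (15.3%). Those larger changes were mainly increases, with 1313 higher (11.3%) and 461 lower (3.97%), and beyond 2 on the log2 scale 273 were higher and 17 lower. All 3 libraries of 1 time lay beyond all 3 of the other for 7658 genes (66% of those tested). The median gene changed by -0.0067 on the log2 scale, with quartiles at -0.40 and 0.48. These shares are the background against which each list count below is to be read.

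**Figure D1:**
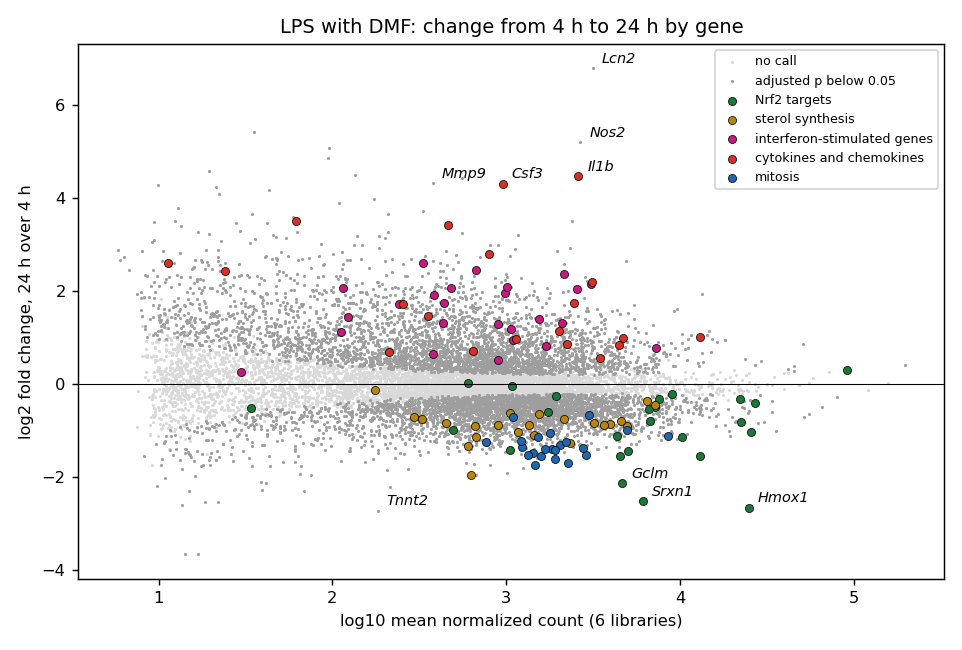
Change from 4 h to 24 h under LPS with DMF (log2 fold change, y axis) against the mean normalized count of the 6 libraries (log10, x axis) for 11602 genes, with members of 5 gene groups coloured. Increases reach 6.79 for Lcn2 and decreases among the labelled genes reach -2.72 for Tnnt2, and the Nrf2 target and mitosis genes lie mostly below 0 while the cytokine and interferon-stimulated genes lie above it.

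The largest rise was that of Lcn2, which encodes lipocalin-2, a protein that sequesters bacterial siderophores (chromosome 2, 32274645 to 32278264, GRCm39). It was at 56.1, 84.8 and 34.5 at 4 h and at 5025, 6333 and 7352 at 24 h. Every 24 h library was thus far above every 4 h library, and the log2 fold change was 6.79 ± 0.26 (SE, n = 3 per group, limma adjusted p = 5.86e-07). Nos2, the inducible nitric oxide synthase, was at 57.2, 543 and 73.1 at 4 h and rose to 3508, 7254 and 4555 (log2 fold change 5.20 ± 0.67, adjusted p = 9.78e-05). Replicate 2 carried most of the Nos2 signal at 4 h, and without it the change was 6.22 ± 0.23. Il1b, the precursor of interleukin-1 beta, went from 150, 796 and 81.2 to 3372, 5519 and 5699 (4.46 ± 0.63, adjusted p = 0.000177), and to 5.41 ± 0.25 without that library.

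The 10 largest rises were taken among called genes with non-overlapping libraries and a mean of at least 50 in the higher group. The remaining genes of these were Urah, Asb2, Slfn1, Crtac1, S100a8, Mmp9 and Csf3, with log2 fold changes between 4.31 and 5.42. S100a8, a subunit of the calcium-binding alarmin calprotectin, was at 33.5 to 55.0 at 4 h and at 646, 1489 and 1080 at 24 h, whereas its partner S100a9 never exceeded 1.09. Mmp9, a secreted gelatinase, was tight within groups, at 39.6, 31.9 and 34.5 against 685, 762 and 710. Csf3, the granulocyte colony-stimulating factor, went from 107, 138 and 43.7 to 1122, 2097 and 2211. Asb2, a substrate receptor of a ubiquitin ligase, had only 14 reads in all at 4 h and normalized counts of 148 to 212 at 24 h. Urah had 3 reads at 4 h against 235 at 24 h, a ratio of 70.3 per read sequenced with a 95% exact interval of 23.8 to 343 that covers counting error only. Slfn1 belongs to a family with similar sequences, so how its reads were assigned is uncertain. With LPS alone all of the 10 genes also had positive time changes, from 0.44 for Il1b, without a call, to 4.07 for Lcn2 and 4.10 for Urah. Only for Urah did the time change with DMF not differ from that with LPS alone (difference 1.31 ± 0.70, limma adjusted p = 0.221).

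The 10 largest falls under the same filter were smaller in size, between -1.96 and -2.72. They held 3 Nrf2 targets (Hmox1, Srxn1 and Gclm) and the sterol enzyme gene Hsd17b7. Tnnt2, which encodes a cardiac troponin subunit, fell from 429, 199 and 324 to 63.5, 43.5 and 33.2 (log2 fold change -2.72 ± 0.29, adjusted p = 3.27e-05). Fam83d, a spindle protein gene, was at 306, 348 and 403 at 4 h and at 101, 62.1 and 67.9 at 24 h. The others were Fam169a, Gldc (a subunit of the glycine cleavage system), Grk1 and Elovl3, each with a mean at 4 h between 62.3 and 115. With LPS alone these changed by -1.68, -1.41, -1.93 and -1.26 over time, without a called difference from DMF. For the other falls named here the difference from LPS alone was called.

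Antioxidant genes fell as a group. Of 25 Nrf2 targets tested, 19 fell and none rose, with a median of -0.79 on the log2 scale and 10 falling by more than 1. This list includes genes that the study itself named from these samples, so its direction is not independent evidence. Without the 24 h replicate 1 or the 4 h replicate 1 library 1 member was called higher. Hmox1, heme oxygenase 1 (chromosome 8, 75820249 to 75827217), was at 35591, 44921 and 48089 at 4 h and at 5213, 8147 and 7169 at 24 h. The libraries did not overlap, and the log2 fold change was -2.66 ± 0.16 (adjusted p = 2.36e-06). Srxn1, sulfiredoxin, which repairs overoxidised peroxiredoxins, fell from 10182, 10666 and 10183 to 1373, 1992 and 2132 (-2.52 ± 0.14). Gclm, the modifier subunit of glutamate-cysteine ligase, fell from 8387, 6276 and 8024 to 1451, 1862 and 1876 (-2.13 ± 0.13).

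Other members fell by less. Txnrd1 (cytosolic thioredoxin reductase), Gclc (the catalytic subunit of glutamate-cysteine ligase), Gsr (glutathione reductase) and Me1 (malic enzyme) changed by -1.55, -1.54, -1.43 and -1.43. Slc7a11, the cystine importer, was at 12534, 14903 and 14738 at 4 h and at 4978, 7109 and 7312 at 24 h (-1.14 ± 0.14, adjusted p = 7.97e-05). The pentose phosphate enzyme genes Pgd, Tkt, Taldo1 and G6pdx changed by -0.81, -0.54, -0.50 and -0.32. Members that did not pass the test included Fth1, the ferritin heavy chain, at 71513 to 96916 at 4 h and 85787 to 109875 at 24 h (0.30 ± 0.14, adjusted p = 0.0855), and Nqo1, which was low at both times (27.5 to 56.1 and 16.1 to 44.6). Among the regulators, Nfe2l2, which encodes Nrf2 itself, was at 2324, 2087 and 2129 and then at 2334, 2587 and 2415 (0.17 ± 0.08, adjusted p = 0.111). Keap1 and Cul3, which target Nrf2 for degradation, fell by 0.46 and 0.56, and of the 8 regulators tested 5 fell and 1, Nfe2l1, rose (0.87 ± 0.10).

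The promoters of the Nrf2 targets tested, falling or not, were searched for the antioxidant response element TGACNNNGC on both strands in the 250 bases before each RefSeq start (GRCm38.p6). It was found in 5 of 20 members with a promoter in the table (25%), against 13.9% of the 9174 tested genes with one. The promoters of Gclm (chr3:122245307-122245556, plus strand) and of Prdx1, a peroxiredoxin gene that fell by 1.04 (chr4:116685349-116685598, plus strand), are shown because both hold the element about 130 bases before the start, with its letters in capitals.
Gclm: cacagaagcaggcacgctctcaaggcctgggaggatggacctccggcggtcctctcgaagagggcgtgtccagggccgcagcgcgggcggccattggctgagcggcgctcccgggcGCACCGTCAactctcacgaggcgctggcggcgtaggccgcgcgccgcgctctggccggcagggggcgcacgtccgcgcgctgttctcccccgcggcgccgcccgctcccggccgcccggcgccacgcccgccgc
Prdx1: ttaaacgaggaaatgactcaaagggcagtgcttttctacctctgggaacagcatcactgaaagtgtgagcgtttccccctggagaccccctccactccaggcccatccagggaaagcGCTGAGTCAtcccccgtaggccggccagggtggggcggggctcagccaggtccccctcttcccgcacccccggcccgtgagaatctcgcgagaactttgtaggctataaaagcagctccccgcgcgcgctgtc

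In both sequences the element lies on the reverse strand, centred 130 and 128 bases before the start. A match of letters is a description and does not show binding.

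Cytokine and chemokine genes moved the other way. Of 20 tested, 19 rose and none fell, with a median of 1.59 on the log2 scale. Several of these were also named by the study from these samples (Il1a, Il1b, Tnf, Ccl2, Ccl7, Ccl9 and Cxcl2). Ccl7, a monocyte chemoattractant, was at 107, 76.0 and 56.9 at 4 h and at 767, 794 and 980 at 24 h (log2 fold change 3.43 ± 0.20, adjusted p = 2.36e-06). Ccl2, its close relative, rose from 1645, 901 and 860 to 4792, 4248 and 6150 (2.21 ± 0.22). Il6 was near the limit of the test at 4 h, with 26.4, 7.71 and 3.05, and stood at 105, 103 and 127 at 24 h (3.51 ± 0.54, adjusted p = 0.00032). Il1a rose by 2.79 ± 0.37.

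Tnf rose by less, from 3912, 3179 and 2576 at 4 h to 5911, 5142 and 6009, a change of 0.84 ± 0.14 (adjusted p = 0.000448). With LPS alone Tnf changed by -0.48, and the difference was 1.31 ± 0.17 (limma adjusted p = 0.000178). Ccl3 and Cxcl10 passed the test with overlapping libraries (0.57 and 0.69), and Cxcl3 did not pass it (0.86 ± 0.35, adjusted p = 0.0546). Without the 4 h replicate 2 library, 20 of 20 members rose. The count was 17 of 19 tested without the 24 h replicate 2 or 3 library, and 17 of 20 without the 4 h replicate 3 library. The listed members Il10, Il12b, Cxcl1, Cxcl16 and Ccl20 were too low to test. Among NF-kB subunits and feedback genes 10 of 17 rose and 1 fell, with a median of 0.35. The study named Nfkb1, Nfkb2, Bcl3, Nfkbid and Cd40 from these samples. Bcl3, an atypical IkB protein, rose most (2.32 ± 0.23), followed by Nfkbie (1.34) and Nfkbiz (1.27), while Nfkbib fell by 0.29, a call lost under 4 of the alternatives. The subunit genes Rela, Relb and Nfkb2 changed by 0.02, 0.17 and -0.10 without passing the test. This count fell to 7 higher without the 4 h replicate 3 library and was 12 without the 4 h replicate 2 library.

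Immediate early genes also rose, 12 of 19 with 1 lower, and 15 rose without the 4 h replicate 2 library. Without the 24 h replicate 3 library 10 rose. Fos went from 115, 112 and 98.5 to 487, 441 and 426 (2.04 ± 0.12, adjusted p = 2.36e-06), and Dusp6, a phosphatase that switches off ERK, rose by 1.59 ± 0.15, while Fosl1 fell by 0.76. In the group of nitric oxide, arginine and itaconate genes, 6 of 9 rose and 2 fell, with the same counts without the 4 h replicate 2 library. Without the 24 h or the 4 h replicate 3 library 5 rose. Hcar2, the cell-surface receptor that monomethyl fumarate activates, was at 135, 283 and 152 at 4 h and at 641, 1108 and 975 at 24 h (2.29 ± 0.27, adjusted p = 5.73e-05). Arg1 (arginase 1) fell from 18.7, 33.0 and 41.6 to 5.04, 12 and 8.67 (-1.75 ± 0.40, adjusted p = 0.00356). Ptgs2, the inducible cyclooxygenase, stayed at 31479 to 49269 over both times (0.24 ± 0.18, adjusted p = 0.282). Of the acute-phase and antimicrobial genes, 8 of 10 rose, with Saa3 at 2745 to 8465 and then 16211 to 26720, and Hp (haptoglobin) did not pass the test (0.32 ± 0.15). Without the 4 h replicate 2 library 9 rose, and without the 24 h replicate 2 or 3 or the 4 h replicate 3 library 7 did. With LPS alone 8 of 10 acute-phase and antimicrobial genes rose too (median 1.44), and 3 differed in the more positive direction with DMF and 1 in the more negative.

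Interferon-stimulated genes rose nearly as a block. Of 25 tested, 24 were higher at 24 h and none lower, with a median of 1.45, and Cmpk2 was the member without a call (0.26 ± 0.35, adjusted p = 0.54). Isg20, an exonuclease, rose most (2.60 ± 0.31, adjusted p = 6.7e-05), from 70.4, 160 and 66.0 to 405, 720 and 579. Isg15, the ubiquitin-like modifier, went from 135, 282 and 147 to 540, 1012 and 752 (2.06 ± 0.28). Irf7, the transcription factor of the interferon amplification loop, was at 668, 2588 and 709 at 4 h, with replicate 2 well above the others, and at 3725, 6079 and 4682 at 24 h (2.14 ± 0.42, adjusted p = 0.00143). Without the 4 h replicate 2 library the change of Irf7 was 2.78 ± 0.16 and again 24 members rose. Without the 24 h replicate 2 or the 4 h replicate 3 library 22 members rose. Irf9 and Mx2 passed the test although their libraries overlapped (0.53 and 0.65), and lost the call under 2 and 5 of the alternatives. Members of the Ifit, Oas and Gbp families share sequence with close paralogs, so the split of reads between them is uncertain.

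The interferon-stimulated response element, searched on both strands as a pair of GAAA repeats spaced by any 2 bases, was present in the 250 bases before a RefSeq start in 10 of 20 matched members (50%), against 3.39% of tested genes. The promoters of Isg15 (chr4:156200819-156201068, minus strand) and Ifit1 (chr19:34640639-34640888, plus strand) are shown for their repeated elements, and that of Il6 (chr5:30012864-30013113, plus strand) for an NF-kB site, searched on both strands as GGGA and TTCC spaced by any 2 bases. The latter was present in 5 of 14 matched cytokine and chemokine genes (35.7%), against 1.48% of tested genes. Capitals mark the matches, which overlap one another in Isg15. Coordinates refer to GRCm38.p6.
Isg15: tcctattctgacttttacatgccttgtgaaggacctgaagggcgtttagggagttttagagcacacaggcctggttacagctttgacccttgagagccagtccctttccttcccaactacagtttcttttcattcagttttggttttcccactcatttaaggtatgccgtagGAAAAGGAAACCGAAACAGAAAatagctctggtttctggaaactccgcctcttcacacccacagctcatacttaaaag
Ifit1: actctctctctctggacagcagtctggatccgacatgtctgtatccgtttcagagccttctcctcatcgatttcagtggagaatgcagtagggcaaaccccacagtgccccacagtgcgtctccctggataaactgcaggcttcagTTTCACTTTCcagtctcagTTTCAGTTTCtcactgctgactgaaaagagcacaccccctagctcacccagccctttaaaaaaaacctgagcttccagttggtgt
Il6: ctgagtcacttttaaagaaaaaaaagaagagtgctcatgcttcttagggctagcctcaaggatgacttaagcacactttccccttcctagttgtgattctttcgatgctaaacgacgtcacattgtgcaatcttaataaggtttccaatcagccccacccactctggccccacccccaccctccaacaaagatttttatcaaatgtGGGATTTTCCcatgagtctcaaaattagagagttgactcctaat

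The element of Il6 is centred 39 bases before the start, and those of Ifit1 lie 99 and 80 bases before it. Isg15, Ifit1 and Il6 rose by 2.06, 1.29 and 3.51 on the log2 scale.

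**Figure D2:**
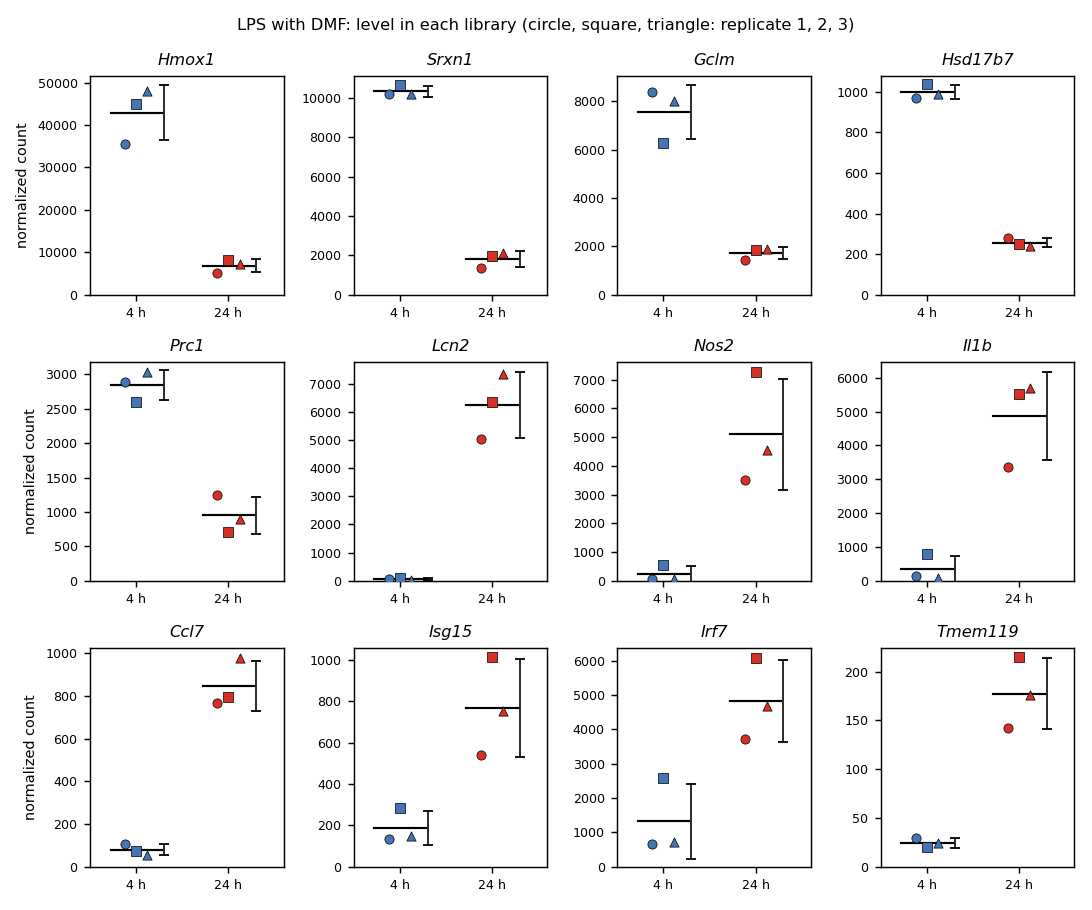
Normalized count (y axis, from 0) of 12 genes in each of the 6 libraries at 4 h (blue) and 24 h (red). Symbols give the replicate number, horizontal lines the mean of 3 libraries and vertical bars 1 SD, cut at 0 where they reach below it. The 24 h libraries lie below the 4 h libraries in the first 5 panels and above them in the other 7. Replicate 2 (square) is the highest 4 h library for Srxn1, Hsd17b7, Lcn2, Nos2, Il1b, Isg15 and Irf7.

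Genes of sterol synthesis fell together. Of 23 tested, 22 were lower at 24 h and none higher, with a median of -0.86, and Tm7sf2 was the member without a call (-0.14 ± 0.16). Hsd17b7, a sterol 3-keto reductase, was at 971, 1038 and 991 at 4 h and at 282, 248 and 240 at 24 h (-1.96 ± 0.10, adjusted p = 2.26e-06). Idi1, Cyp51, Nsdhl and Hmgcs1, enzymes of the mevalonate and post-squalene steps, changed by -1.34, -1.27, -1.15 and -1.10. The fall was smaller for Srebf2, the transcription factor of the pathway (-0.37 ± 0.13, adjusted p = 0.0294), whose libraries overlapped at 5745 to 8438 and 5386 to 5895. The Srebf2 call was lost under 5 of the alternatives, and without the 4 h replicate 2 library its change was -0.26 (adjusted p = 0.0827).

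The cholesterol exporters moved in the opposite direction. Abca1 was at 781, 1459 and 888 at 4 h and at 3846, 4359 and 4180 at 24 h (2.04 ± 0.19, adjusted p = 1.5e-05), and Abcg1 went from 834, 898 and 922 to 2186, 2415 and 2351 (1.39 ± 0.09). Both are targets of the oxysterol receptors LXR, whose activity was not measured. The wider list of efflux and lipid storage genes was mixed, with 6 of 19 higher and 2 lower, the latter being Apoe (-1.01 ± 0.11) and Lpl (-0.63 ± 0.10). The sterol regulatory element TCACNCCAC was found before the start of 1 of 16 matched members of the synthesis list (6.25%), against 1.2% of tested genes. It lies 132 bases before the start of Hmgcs1 (chr13:119690101-119690350, plus strand), shown as the one synthesis gene with a match.
Hmgcs1: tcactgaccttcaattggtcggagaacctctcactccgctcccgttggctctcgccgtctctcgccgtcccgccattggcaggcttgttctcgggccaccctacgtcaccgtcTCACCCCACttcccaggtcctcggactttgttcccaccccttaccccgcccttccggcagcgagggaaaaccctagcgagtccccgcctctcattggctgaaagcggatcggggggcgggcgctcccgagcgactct

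Proliferation genes fell. All 22 mitosis genes tested were lower at 24 h, with a median of -1.37 and non-overlapping libraries in each case. Cenpf, a kinetochore protein, fell most, from 2045, 2060 and 2547 to 1032, 471 and 589 (-1.74 ± 0.23, adjusted p = 0.000122). Ccnb1 (cyclin B1) was at 3643, 2844 and 3861 and then at 1413, 824 and 1022 (-1.69 ± 0.18). Prc1, which bundles the central spindle, was at 2893, 2601 and 3033 and then at 1242, 708 and 898 (-1.62 ± 0.17). Of 23 DNA replication genes, 20 fell and none rose (median -1.04), with Pcna, the sliding clamp of DNA polymerase, at -1.19 and the licensing factor Mcm5 at -1.08 ± 0.10. Ccne1, Tk1 and Cdt1 did not pass the test. Among CDK inhibitors, G1 cyclins and p53 targets 9 of 18 rose and 4 fell. Gadd45a rose most (2.01 ± 0.24), Ccnd1 (cyclin D1) rose by 0.90 ± 0.13, Plk2 fell by 1.29, and Cdkn1a (p21) was at 8264 to 9833 and 8726 to 10685 (0.06 ± 0.10, adjusted p = 0.666).

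The cell cycle genes homology region TTTGAA, a short element bound by the DREAM complex, was found in 8 of 18 matched mitosis genes (44.4%), against 13.1% of tested genes. The promoter of Prc1 (chr7:80294226-80294475, plus strand) holds it 27 bases before the start, in capitals.
Prc1: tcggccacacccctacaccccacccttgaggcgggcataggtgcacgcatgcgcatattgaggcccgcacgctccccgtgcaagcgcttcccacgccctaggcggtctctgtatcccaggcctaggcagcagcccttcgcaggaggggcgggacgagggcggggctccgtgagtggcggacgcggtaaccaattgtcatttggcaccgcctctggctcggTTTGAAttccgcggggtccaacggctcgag

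**Figure D3:**
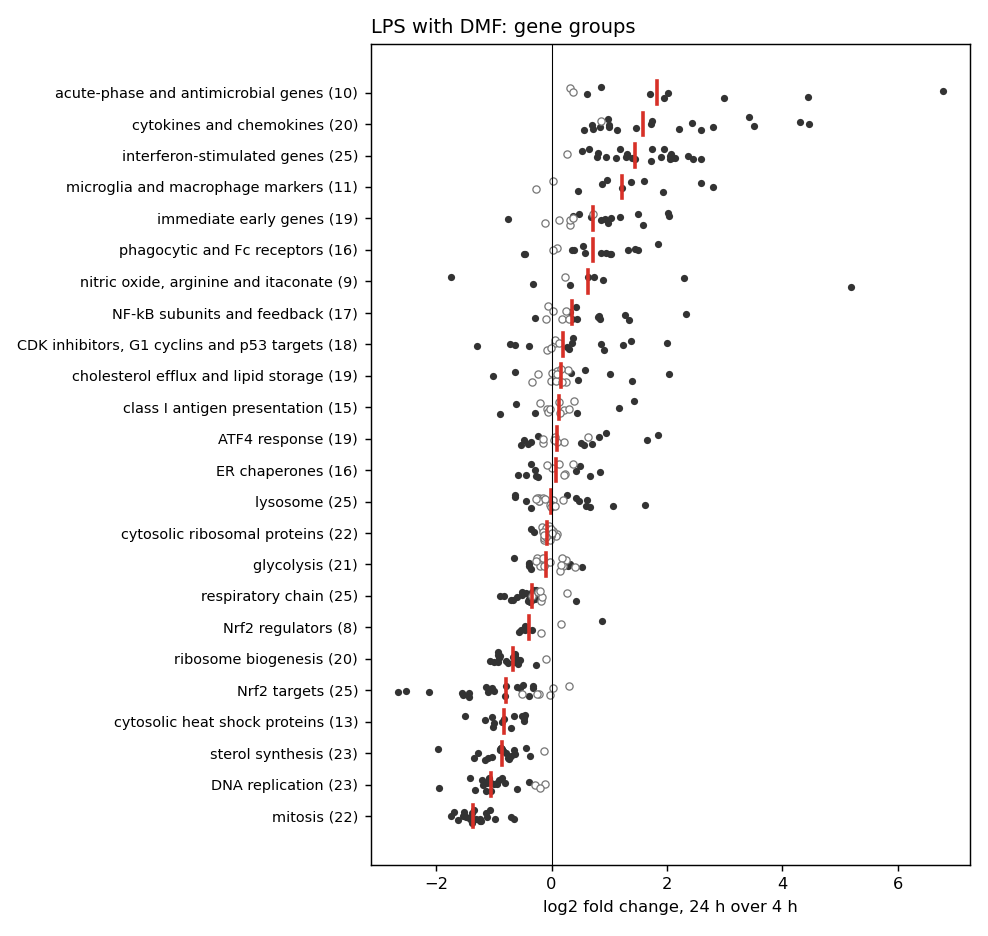
Log2 fold change from 4 h to 24 h (x axis) of every tested member of 24 gene groups, with the number tested in brackets. Filled points passed an adjusted p of 0.05, open points did not, and red lines are group medians, which run from -1.37 for mitosis to 1.83 for acute-phase and antimicrobial genes.

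Chaperone and ribosome biogenesis genes fell alongside. All 13 cytosolic heat shock genes tested were lower (median -0.83), with Hspb1 lowest (-1.50 ± 0.34), Hsp90aa1 at -1.0 ± 0.08 and Hspa8 going from 32254, 36703 and 39014 to 20351, 19528 and 20682. Of 20 ribosome biogenesis genes, 19 fell and none rose (median -0.66), with Nop58 at -1.07 ± 0.10. The cytosolic ribosomal protein genes themselves moved little, with 2 of 22 called, both lower (Rpl8, -0.36, and Rps6, -0.31). In the respiratory chain 18 of 25 fell and 1 rose (mt-Co1, 0.42, with 2 higher without the 4 h replicate 2 library), the lowest being Ndufb8 (-0.89 ± 0.25).

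Other stress and metabolic groups went in both directions, as did all genes tested (29.7% higher and 29.1% lower). The counts alone thus do not mark these groups out. ER chaperones gave 4 higher and 6 lower of 16, from Sel1l (0.84 ± 0.11) to Dnajb11 (-0.59 ± 0.09). Without the 24 h replicate 1 library, and with scaling to total reads, 7 were higher and 3 lower, and without the 24 h or the 4 h replicate 3 library 4 were higher and 3 lower. The ATF4 response gave 7 higher and 5 lower of 19, from Ddit3, the transcription factor CHOP (1.85 ± 0.13), to Mthfd2 (-0.52 ± 0.09). Glycolysis gave 3 higher and 5 lower of 21, from Hk1 (0.53 ± 0.16) to Ldha, lactate dehydrogenase A (-0.64 ± 0.09). Its higher count was 0 without the 24 h replicate 2 or the 4 h replicate 3 library, 1 without the 24 h replicate 3 library and 6 without the 4 h replicate 2 library or with scaling to total reads. Lysosomal genes gave 8 higher and 4 lower of 25, from Tfeb, the regulator of lysosome biogenesis (1.62 ± 0.15), to Ctss (-0.63 ± 0.12), and 7 higher and 7 lower without the 4 h replicate 2 library. Class I antigen presentation gave 3 higher and 3 lower of 15, from Nlrc5, its transactivator (1.43 ± 0.10), to Calr (-0.90 ± 0.10). It gave 5 higher without the 4 h replicate 2 library and 6 with scaling to total reads.

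Surface receptors and the microglial markers that could be tested mostly rose. Of 16 phagocytic and Fc receptor genes, 12 were higher and 2 lower (median 0.71), and 11 and 1 without the 24 h replicate 1 library. Msr1, a scavenger receptor, rose by 1.84 ± 0.14 and Fcgr2b, the inhibitory Fc receptor, by 1.5 ± 0.09, while Clec4e and Trem2 fell by 0.48 and 0.46. Of the 19 microglia and macrophage markers 11 were tested, and of these 9 rose and none fell (median 1.21), while without the 4 h replicate 2 library 1 fell. The other markers were not listed or too low to test. Among them was C1qb, whose highest count was 20.9 at 4 h and 4.35 at 24 h. Tmem119, a marker of resident microglia, was at 29.7, 19.8 and 24.4 at 4 h and at 142, 215 and 176 at 24 h (2.80 ± 0.22, adjusted p = 6.96e-06). The purinergic receptor genes P2ry13 and P2ry12 rose by 2.59 ± 0.24 and 1.6 ± 0.21, from 11 to 15.2 and from 24.2 to 29.7 at 4 h. The summed level of the 16 listed markers was 23231 to 29186 at 4 h and 38811 to 46342 at 24 h. Of the markers of other brain cells, Map2, a neuronal marker, passed the test (-0.77 ± 0.24, adjusted p = 0.0196) but not without the 24 h replicate 3 library, and the oligodendrocyte gene Mbp changed by 0.29 without a call. The endothelial gene Pecam1 changed by 0.55 ± 0.20, a call lost under 5 of the alternatives, 4 of which left out a single library, and Cdh5 had no call. The part of these other markers in the results was not tested.

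The next comparison asked whether these changes were those of LPS exposure over time or differed with DMF. The difference between the time change with DMF and that with LPS alone was tested over 12 libraries scaled together, and 1954 of 11909 genes differed (16.4%). It was more positive with DMF for 984 (8.26%) and more negative for 970 (8.15%). Scaled to total reads, 1842 genes differed, 1129 more positive and 713 more negative, so the balance of directions depends on the scaling. Without the 24 h replicate 3 library of the DMF group, 1263 genes differed. Of 6750 called genes also tested with LPS alone, 4116 were called with the same sign there and 181 with the opposite sign, of which 117 rose with DMF and fell with LPS alone. Those 117 held 12 interferon-stimulated and 8 cytokine or chemokine genes, and the 64 of the reverse kind held 14 sterol synthesis genes. Shares of all genes called over time with LPS alone or in vehicle cells were not counted. Counts of list members called within either treatment thus stand without a background.

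The interferon-stimulated genes gave 23 of 25 more positive and none more negative differences. With LPS alone their median time change was -0.37, with 13 falling and 2 rising. Ifit3 illustrates the levels. With LPS alone it was at 789, 2132 and 1179 at 4 h and at 518, 654 and 457 at 24 h, while with DMF it was at 121, 259 and 121 at 4 h and at 454, 776 and 574 at 24 h. The groups thus stood far apart at 4 h and overlapped at 24 h (difference 3.13 ± 0.47, adjusted p = 0.000546). Ifit1 (3.71), Mx1 (3.15), Usp18 (3.02) and Isg15 (2.93) had similar differences, whereas Irf7 and Bst2 did not pass the test. Without the 4 h replicate 2 library of the DMF group 24 members differed, and the counts over single libraries left out ran from 18 to 24.

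Cytokine and chemokine genes gave 17 of 20 more positive differences and none more negative. The count was 18 without the 4 h replicate 2 library of the DMF group and 14 without its 24 h replicate 3 library. With LPS alone their median change was -0.46, with 9 falling and 3 rising. Ccl7 with LPS alone was at 1162, 386 and 792 at 4 h and 543, 228 and 447 at 24 h, against 106, 76.4 and 57.0 and then 770, 795 and 982 with DMF. The DMF libraries were thus lowest at 4 h and highest at 24 h (4.32 ± 0.50, adjusted p = 7.94e-05). Il6 was at 24.6, 57.2 and 21.6 and then 68.6, 71.7 and 53 with LPS alone, against 26.3, 7.75 and 3.05 and then 105, 104 and 128 with DMF (2.5 ± 0.73, adjusted p = 0.0294). Ccl5 rose in both treatments and did not differ beyond the test (0.39, adjusted p = 0.66).

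The Nrf2 targets gave 19 of 25 more negative differences and none more positive. With LPS alone their median change was 0.014. Hmox1 with LPS alone was at 3492, 4616 and 3552 at 4 h and at 4949, 7134 and 6237 at 24 h, whereas with DMF it went from 35488, 45184 and 48206 to 5234, 8162 and 7185. The treatments did not overlap at 4 h and did at 24 h (difference in time change -3.31 ± 0.25, adjusted p = 3.59e-06). Slc7a11 did not return to the level of LPS alone. It was at 12498, 14990 and 14774 and then 4999, 7121 and 7329 with DMF, against 2334, 2052 and 1878 and then 1745, 2878 and 2123 (-1.22 ± 0.24, adjusted p = 0.00358). Srxn1 and Gclm likewise stayed above LPS alone at 24 h, with means of 1837 ± 403 against 799 ± 30.2 and of 1734 ± 240 against 1056 ± 56.8 (SD, n = 3).

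**Figure D4:**
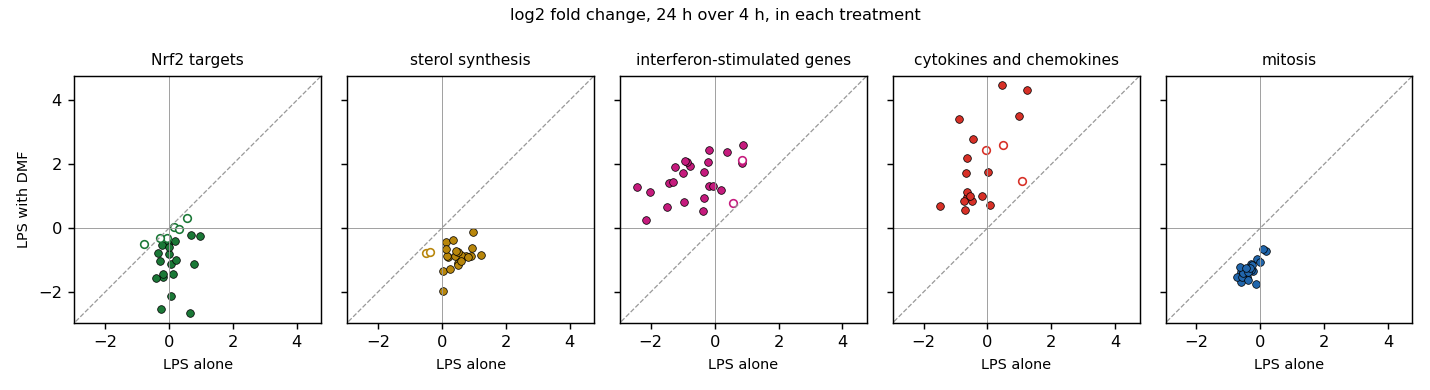
Log2 fold change from 4 h to 24 h with DMF (y axis) against that with LPS alone (x axis) for the tested members of 5 gene groups, with the dashed line marking equal change. Filled points differed between treatments at an adjusted p below 0.05, which holds for 19 of 25 Nrf2 targets and 21 of 23 sterol genes below the line, for 23 of 25 interferon-stimulated and 17 of 20 cytokine genes above it, and for 22 of 22 mitosis genes below it.

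Sterol synthesis genes gave 21 of 23 more negative differences. With LPS alone 15 rose and 2 fell over time (median 0.44). Hsd17b7 overlapped between treatments at 4 h, at 968, 1044 and 993 with DMF and 1087, 1030 and 953 with LPS alone. By 24 h it was at 283, 249 and 240 with DMF and at 984, 1110 and 1082 with LPS alone (-2.01 ± 0.13, adjusted p = 2e-06). Idi1 was at 804 to 914 with DMF and 793 to 872 with LPS alone at 4 h, and at 306 to 374 against 799 to 892 at 24 h (-1.37 ± 0.13). For Hsd17b7 and Idi1, which changed little with LPS alone, the treatments parted at 24 h, whereas for Hmox1 and Ifit3 they stood apart at 4 h. These levels do not describe the 15 sterol genes that rose with LPS alone. Abca1 and Abcg1 had more positive differences (1.76 and 1.4).

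All 22 mitosis genes fell more with DMF, and 15 of 22 also fell with LPS alone (median -0.38). Prc1 was at 2884, 2617 and 3041 and then 1247, 709 and 900 with DMF, against 2473, 2080 and 2572 and then 1924, 1692 and 1812 with LPS alone (-1.23 ± 0.22, adjusted p = 0.0018). Of the DNA replication genes 11 of 23 fell more, a count that dropped to 6 without the 24 h replicate 2 or 3 library of the DMF group or the 24 h replicate 1 or 3 library of LPS alone, and to 8 with scaling to total reads. Ribosome biogenesis genes fell with both treatments (medians -0.66 and -0.64), with 1 difference in each direction, those of Polr1a and Fbl. Of the microglial markers 5 of 11 rose more with DMF, led by P2ry13 (2.77, adjusted p = 0.000561), whereas Tmem119 rose with LPS alone too (1.86) and its difference of 0.93 did not pass the test.

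**Figure D5:**
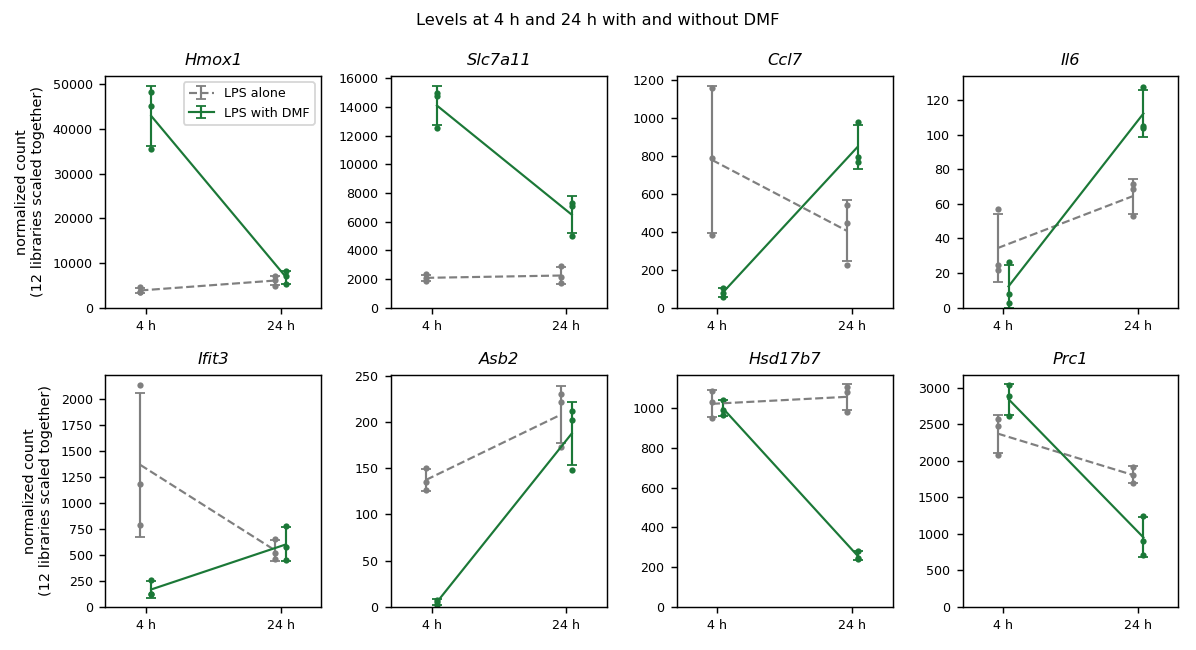
Normalized count (y axis, from 0, 12 libraries scaled together) at 4 h and 24 h with LPS alone (grey, dashed) and LPS with DMF (green) for 8 genes, as points for single libraries and lines through the means of 3 with SD bars. The treatments stand apart at 4 h and overlap at 24 h for Hmox1, Ifit3 and Asb2, stand apart at both times for Slc7a11 and Ccl7, and part at 24 h for Hsd17b7, which is then at 240 to 283 with DMF and 984 to 1110 with LPS alone.

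The extremes of this comparison extended beyond the lists. Asb2 was at 136, 150 and 126 at 4 h with LPS alone against 5.48, 7.75 and 2.04 with DMF, and at 24 h at 222, 172 and 230 against 212, 148 and 202 (difference 4.48 ± 0.42, adjusted p = 1.38e-05). Slc40a1, ferroportin, the iron exporter, averaged 1570 ± 209 and then 997 ± 19.9 with DMF, and 151 ± 47.2 and then 590 ± 54.6 with LPS alone (SD, n = 3), a difference of -2.64 ± 0.23. Vegfd averaged 103 ± 6.80 and 26.5 ± 2.93 with DMF against 10.9 ± 5.05 and 26.4 ± 4.06, and was thus at the same mean in both treatments at 24 h (-3.23 ± 0.43).

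MMF was given at the same dose and times as DMF and carries a free carboxylic acid where DMF has a methyl ester. The time change differed between DMF and MMF for 1614 of 11935 genes (13.5%), 789 more positive with DMF (6.61%) and 825 more negative (6.91%). Scaled to total reads, 1508 genes differed, 1028 of them more positive and 480 more negative. With the replicate number as a block 2605 differed, and without the 24 h replicate 2 or 3 library of DMF or the 24 h replicate 1 or 3 library of MMF between 940 and 989 did.

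With MMF the Nrf2 targets had a median time change of 0.016, and 20 of 25 differed in the more negative direction with DMF. Hmox1 averaged 8501 ± 889 at 4 h and 7200 ± 882 at 24 h with MMF, against 44119 ± 6713 and 7045 ± 1538 with DMF (SD, n = 3, difference -2.42 ± 0.21, adjusted p = 2.92e-05). Interferon-stimulated genes differed for 18 of 25 and cytokine and chemokine genes for 14 of 20, all more positive with DMF. Il1b averaged 1789 ± 742 and 2782 ± 889 with MMF, against 353 ± 407 and 5007 ± 1330 with DMF (3.80 ± 0.81, adjusted p = 0.00785). Sterol synthesis genes differed for 21 of 23 and mitosis genes for 20 of 22, all more negative with DMF. Hsd17b7 averaged 933 ± 157 and 1041 ± 88.1 with MMF and 1029 ± 36.6 and 264 ± 23.2 with DMF (-2.13 ± 0.16).

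Against the vehicle without LPS, 3016 of 11904 genes differed in time change (25.3%), 1484 more positive (12.5%) and 1532 more negative (12.9%) with LPS and DMF. Scaled to total reads the split was 1951 to 925. In the vehicle cells the mitosis genes had a median change of -0.49, and 21 of 22 fell more with LPS and DMF. Sterol synthesis genes changed by a median of 0.23, and 20 of 23 differed in the more negative direction. Cytokine and chemokine genes rose in vehicle cells too, 9 of 17 tested with none lower (median 0.92), and gave 9 more positive and 4 more negative differences. The 4 were Cxcl2 (-1.26), Ccl3 (-1.09), Ccl4 (-0.64) and Osm (-0.58). Interferon-stimulated genes gave 9 of 25 more positive differences, and the difference of Nos2 did not pass the test (1.87, adjusted p = 0.248). Lcn2 averaged 26.6 ± 27.5 and 30.9 ± 5.08 in vehicle cells against 56.4 ± 24.3 and 6071 ± 1148 (6.13 ± 0.69, adjusted p = 2.66e-05). Hmox1 rose in vehicle cells, from 3306 ± 188 to 8979 ± 715, and fell with LPS and DMF (-4.09 ± 0.20, adjusted p = 4.06e-08).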

How the data were processed

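Poly(A)+ RNA of BV-2 cells was sequenced by the authors. The submitters' processing notes name FastQC 0.12.1, cutadapt 4.4, Trimmomatic 0.39, HISAT2 2.2.1, HTSeq 2.0.3, R 4.3.1 and DESeq2 1.40.2 with build GRCm39, and the strand setting of the counting is not given in the sources used here. The deposited tables hold a signal per gene and library, the read count divided by a DESeq2 size factor, beside columns of the authors' own fold changes and p-values, which were not used. In the 6 DMF libraries 100% of the values became whole reads when multiplied by the recovered factor.

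Genes with at least 10 in at least 3 libraries were fitted with limma 3.58.1 (R 4.3.3) on log2(value + 1), with a trended prior and Benjamini-Hochberg adjustment, and called at an adjusted p below 0.05. Fold changes are on that scale and understate the change of low genes. edgeR 4.0.16 on the recovered reads called 6847 genes and DESeq2 1.42.0 called 6709. Differences in time change were interaction terms over 12 libraries scaled together. The fits were tested on simulated data with 200 changed genes of mean at least 50, a fixed spread between libraries (dispersion 0.02) and no replicate effect. There limma recovered 100% of genes changed by 1 on the log2 scale over time, and 77% for the difference from LPS alone. No changed gene of lower mean or wider spread was simulated, so these shares do not hold for such genes.

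Same-numbered libraries at 4 h and 24 h correlated in their deviations from group means at 0.156, 0.375 and 0.027, and unlike-numbered ones at -0.292 to 0.18. The same-numbered correlation was highest for replicate 2 and lowest for replicate 3, so the number entered as a block only as an alternative. The labels do not say whether a number marks a single repeat. Between DMF and LPS alone the same-numbered correlations were 0.167 to 0.456 at 4 h and 0.228 to 0.519 at 24 h, and between DMF and MMF they were 0.0623 to 0.604 and 0.195 to 0.586. The genes named are the 10 largest rises and falls among called genes with non-overlapping libraries and a mean of at least 50 in the higher group, the 5 most positive and 5 most negative differences per comparison, and members of gene lists, of which a few are not reported here. The members and lists were chosen with earlier results of these data known. Promoters are from RefSeq (GRCm38.p6), matched by symbol, and figures were drawn with matplotlib 3.10.9.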

Additional observations from a re-analysis of the deposited data

Results flagged for a closer look

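The time change from 4 h to 24 h with LPS and DMF differed from that with LPS alone for 1954 genes, from that with MMF for 1614 and from that of the DMSO vehicle for 3016 (limma interaction terms). The most positive and most negative differences in each comparison follow, on the log2 scale, with group means of 3 libraries.

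Against LPS alone, Ccl20, a chemokine, differed by 4.81 ± 0.69 (SE). Its means were 5.40 at 4 h and 8.26 at 24 h with DMF, against 97.8 and 4.70 with LPS alone. With DMF Ccl20 was too low to test over time, its highest library being at 7.71 at 4 h and 12.3 at 24 h. Its difference thus rests mainly on the fall with LPS alone. Gbp4, an interferon-induced GTPase of a family with shared sequence, differed by 4.65 ± 0.79, with 6.18 and 63.3 against 110 and 53.2. Asb2 differed by 4.48 and Ccl7 by 4.32, with the levels given above. Ifit1bl1, also in a family with shared sequence, differed by 4.30 ± 0.61, with 17.8 and 52.1 against 243 and 36.3. All 5 had lower means with DMF at 4 h than with LPS alone. The most negative were Hmox1 (-3.31), Vegfd (-3.23), Slc40a1 (-2.64), Tmc8 (-2.38) and Srxn1 (-2.28), and all 5 had higher means with DMF at 4 h. Tmc8 stood at 244 and 217 with DMF against 57.7 and 267.

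Against MMF the most positive were Gm5431 (4.43 ± 0.66), Il1b (3.80), Ccl7 (3.79 ± 0.39), Gbp4 (3.76 ± 0.89) and Mmp3 (3.70 ± 0.58). Mmp3, a secreted metalloproteinase, had means of 19.7 at 4 h and 132 at 24 h with DMF against 41.9 and 20.3 with MMF. The most negative were Hmox1 (-2.42), Vegfd (-2.34), Acat2 (-2.14 ± 0.20), Hsd17b7 (-2.13) and Gclm (-2.02). Acat2, an acetyl-CoA acetyltransferase, went from 1479 to 539 with DMF and from 1363 to 2137 with MMF.

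Against the vehicle the most positive were Lcn2 (6.13), Urah (5.40 ± 0.92), S100a8 (4.59 ± 0.47), Asb2 (4.46 ± 0.54) and Ccl7 (3.99 ± 0.31). Negative differences included Hmox1 (-4.09), Atp7b (-3.75 ± 0.70), Lmcd1 (-3.63 ± 0.53) and Il7r (-3.50 ± 0.25). Of these, Atp7b stayed at means of 11.6 and 12.7 with LPS and DMF while it rose from 13.9 to 199 in vehicle cells. Il7r, the interleukin-7 receptor, fell from 267 to 123 with LPS and DMF and rose from 97.3 to 499 in vehicle cells.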

How the results depend on the processing

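With 3 libraries per group, 1 library could decide a call. Leaving out each library in turn gave 5622 to 6882 genes for 24 h against 4 h, 1263 to 2141 for the difference from LPS alone, 940 to 2003 from MMF and 2310 to 3206 from the vehicle. The lowest count against LPS alone came without replicate 3 of DMF at 24 h. Against MMF, 960 and 942 genes were called without replicate 2 or 3 of DMF at 24 h, and 989 and 940 without replicate 1 or 3 of MMF at 24 h. Of the members of the lists, 284 to 334 were called, and 18 to 20 of the 20 genes of largest change. A limit of 1 on the log2 scale left 1774 genes over time and 577, 416 and 756 for the differences from LPS alone, MMF and the vehicle.

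With the replicate number as a block, 7054 genes were called over time and 2789, 2605 and 3599 for the 3 differences, so the block moved the count by over 1.5 times against MMF only. Against the vehicle the blocks were set within each treatment, because the replicate numbers differ. Scaling to total reads gave 6822 genes over time, 3933 higher and 2889 lower, and moved the median gene to 0.072. Over the values of single genes under the alternatives, 6958 kept their side of the threshold, 120 gained a call and 168 lost one. A gene with a call in either fit changed sign in 0 cases. Sign changes of genes without a call in either fit were counted among the 6958. The cause of these shifts was not tested.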

Other observations

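Small RNAs with a gene model of their own were measured beside the 11537 protein-coding genes tested. Of 38 small nucleolar RNA genes tested, 10 fell and none rose from 4 h to 24 h under LPS with DMF, and of 15 microRNA genes 2 rose and 3 fell. Protein-coding genes gave 3443 higher and 3366 lower. Small nucleolar RNA and microRNA genes often lie inside host genes, and poly(A)+ libraries do not capture the mature small RNAs, so reads of the hosts and of these genes cannot be told apart.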
